A study of Mus musculus with 6 samples.

Results

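The genes described here are 33 transcripts that earlier work reported as targets of the microRNA miR-124 and that belong to no single gene family. Each was represented by the brightest of its probe sets that is annotated to 1 gene, among 18195 genes measured. A probe set is a group of short DNA probes that reads 1 transcript, and the brightest is the one with the highest mean over 6 arrays. All 33 were measured. No list of seed matches was used, so membership does not say that a gene holds a site. It says that a gene has been reported as a target, and the members were chosen with earlier results of these data known.

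A microRNA is a short RNA that guides an Argonaute protein to messenger RNAs, mostly by pairing of its seed (the bases near its 5′ end) with sites in their 3′ untranslated regions, which lowers the stability or the translation of those messages. miR-124 is abundant in neurons and scarce in most other cells, and many of its reported targets are genes of non-neuronal cells. An array reads RNA level only and does not show whether a message is translated less.

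RNA came from CAD, an established neuroblastoma line of the mouse with catecholaminergic traits that can acquire neuron-like features. 3 biological replicates had received the empty plasmid, named RI vector in the labels, and 3 had received RIPmiR-124a-2, a plasmid expressing miR-124a-2, which is a precursor of miR-124. Both groups were thus transfected. The time from transfection to harvest and the share of cells that took up the plasmid are not given in the sources used here. Each array averages a whole culture, so fewer cells with a transcript and less of it per cell cannot be told apart.

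Signals are given on the log2 scale, on which a difference of 1 is a change of 2-fold, and ran from 2.59 to 14.39. The background level, read from probe sets of a bacterial RNA absent from the samples, was 3.37 to 3.50. The arrays fell into a narrow set (empty vector replicate 1 and plasmid replicates 1 and 2, interquartile range 3.06 to 3.10) and a wide set (the other 3 arrays, 3.26 to 3.35). Poly-A spike transcripts read 5.93 (empty vector) and 5.88 (plasmid) on the arrays numbered 1, against 5.51 to 5.59 on the remaining 4. The 12 markers of the CAD lineage averaged 8.52 to 8.56 with the empty vector and 8.77 to 8.87 with the plasmid. 2 of the 12 had a mean below 5, 0 of them passed the test, and their median log2 change was 0.34. Tyrosine hydroxylase (Th) and Dbh, which make catecholamines, read 6.55 and 10.3 on average, and the vesicular transporter Slc18a2 read 3.93, near background. The part of the array sets, spikes and markers in the results below was not tested. Marker lists of fibroblasts (6 genes), astrocytes (5), oligodendrocytes and Schwann cells (3 of 4 measured), microglia (5) and endothelium (4) averaged 4.12 to 5.03 in every array, and 0 of their genes passed.

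The comparison asked which of these reported targets changed when cells of neuronal lineage were supplied with miR-124. With the plasmid 9 of the 33 fell, 0 rose and 24 did not pass the test (limma, adjusted p under 0.05 over all genes), where 0.698% of all genes tested were called lower, 0.209% higher and 0.907% either way. A log2 change below is plasmid minus empty vector. The 9 were Magt1, B4galt1, Elovl1, Cd164, Serp1, Mapk14, Cers2, Slc16a1 and Arfip1, and they were 1.75-fold to 2.40-fold lower. In 21 of the 33 all 3 plasmid arrays lay below all 3 empty vector arrays, against a background of 7.76% of all genes, and in the other 12 the groups overlapped. The fold change was below 0 in 31 members, against 45.8% of all genes. The median log2 change was -0.62 over the 33 members and 0.02 over all genes. As the members were chosen with earlier results of these data known, these contrasts with all genes are not an independent check. 28 members were brighter than the median gene; among such genes 1.36% were called lower and 11.7% did not overlap in that direction. All 9 members that fell and all 21 without overlap were among those 28.

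The distribution was spread between genes that were more than 2-fold lower and genes near 0. 4 of the 9 that passed (Magt1, B4galt1, Elovl1 and Cd164) were at least 2-fold lower; 0.225% of all genes tested both passed and were at least 2-fold lower. 16 other genes reported as targets, among them Ptbp1 and Ctdsp1, had a median log2 change of -0.73, and 8 of those 16 fell. Like all lists here, these 16 were chosen with earlier results of these data known, so they are not an independent check. Their count also depended on single arrays: 0 passed by limma without empty vector replicate 2 or without empty vector replicate 3, 1 without plasmid replicate 1 and 4 without plasmid replicate 2. Both curves lie to the left of that for all genes in the cumulative plot, and the difference between them was not tested.

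**Figure D1:**
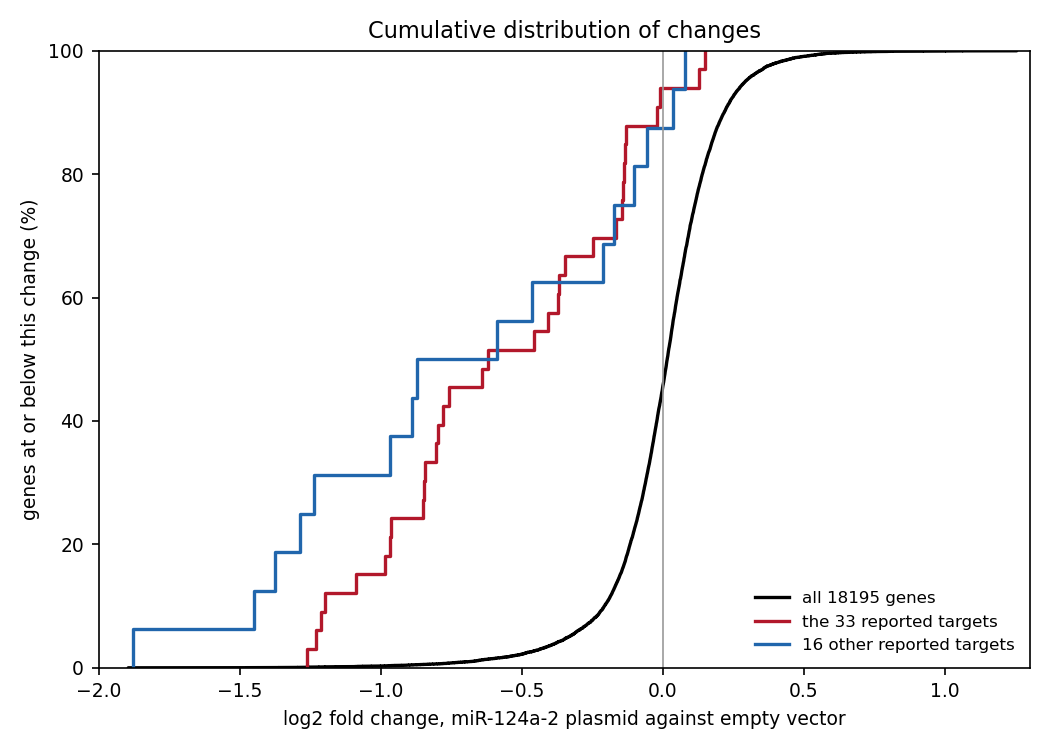
Cumulative share of genes (vertical axis, percent) at or below each log2 change of miR-124a-2 plasmid against empty vector (horizontal axis), for all 18195 genes, the 33 reported targets and 16 other reported targets. The median over the 33 was -0.62 and over all genes 0.02.

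The secretory pathway and glycosylation genes held the most calls: 4 of 8 fell (Magt1, B4galt1, Serp1 and Arfip1), and the groups did not overlap in any of the 8. Over all genes 0.698% were called lower and 7.76% were lower without overlap. Among genes brighter than the median gene, as these 8 all were, the shares were 1.36% and 11.7%. The difference between roles, which also differ in signal level, was not tested. The median log2 change of the 8 secretory genes was -0.92. Proteins of this group make, fold, glycosylate or carry membrane and secreted proteins in the endoplasmic reticulum (ER) and Golgi. Magt1, an oxidoreductase subunit of the oligosaccharyltransferase that attaches sugar chains to new proteins, read 7.55, 7.46 and 7.54 with the empty vector (replicates 1, 2 and 3, an order kept below) and 6.33, 5.85 and 6.58 with the plasmid. It was 2.40-fold lower (log2 change -1.26, SE 0.17, adjusted p = 0.0177), the largest change among the 33. The empty vector arrays lay close together (SD 0.05), and all plasmid arrays lay below them with a wider spread (SD 0.37). Its second probe set gave -1.16.

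B4galt1, a Golgi enzyme that adds galactose to sugar chains and is also part of lactose synthase, read 7.22, 7.34 and 7.07 with the empty vector and 5.93, 5.75 and 6.30 with the plasmid. Its log2 change was -1.21 (SE 0.15, adjusted p = 0.0121). No array of one group reached the other, and B4galt1 passed under 15 of 19 alternative settings, the most of the 33. Serp1, a small ER membrane protein that protects newly made membrane proteins during stress, read 10.33, 10.57 and 10.45 against 9.27, 9.49 and 9.63. Its log2 change was -0.98 (SE 0.12, adjusted p = 0.0121), and its other probe set gave -1.14, so both read the same way. Arfip1 (arfaptin 1), which binds Arf family GTPases at the trans-Golgi, read 9.09, 8.94 and 8.92 against 8.16, 8.04 and 8.34 and fell by 0.80 in log2 terms (SE 0.11, adjusted p = 0.0191). The plasmid arrays of these genes were all below the vector arrays.

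The 4 remaining secretory genes did not pass the test. Chsy1, which builds the chondroitin sulfate chain, had a log2 change as large as those that passed, -1.23 (95% interval -1.76 to -0.70), with an adjusted p of 0.0578. It read 7.62, 7.99 and 8.04 against 6.31, 6.43 and 7.23. The spread between the plasmid arrays (SD 0.50) was wide, and replicate 3 lay nearest to the vector. Tmem109, an ER membrane protein reported to form cation channels, read 8.65, 9.11 and 9.15 against 7.60, 8.29 and 8.45, a log2 change of -0.85 (interval -1.36 to -0.34, adjusted p = 0.155). Replicate 1 was the lowest array in both groups of Tmem109. Its other probe sets gave -0.95, -1.10 and -1.15, and a dim one (mean signal 3.30) gave -0.07. With the mean of its 5 probe sets Tmem109 passed by limma (log2 change -0.82, adjusted p = 0.0440), and it passed under 3 of 19 alternative settings. Lman1 (ERGIC-53), a lectin that carries glycoproteins out of the ER, read 9.06, 9.07 and 9.11 against 8.75, 8.64 and 8.73, with a log2 change of -0.37 (interval -0.58 to -0.17, adjusted p = 0.119). Surf4, a cargo receptor of the same step, read 9.90, 10.21 and 10.10 against 9.67, 9.76 and 9.75, with a log2 change of -0.35 (interval -0.59 to -0.10, adjusted p = 0.234). Both differences were small and without overlap.

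The lists of genes that work around these enzymes gave 0 calls. As 0.698% of all genes were called lower, 0 in lists of this size does not set them apart from other genes. Of 14 measured genes of the oligosaccharyltransferase and translocon, 0 passed, 12 had a fold change below 0 and the median was -0.07. The smallest adjusted p there was that of the catalytic subunit Stt3a (log2 change -0.66, adjusted p = 0.113), while Tusc3, the paralog of Magt1, had a log2 change of 0.07 (adjusted p = 0.918). Of 16 genes of ER exit and cargo receptors 0 passed, with a median of 0.02, and the smallest adjusted p was that of Tmed10 (-0.35, adjusted p = 0.327). Of 13 galactosyl and chondroitin transferases 0 passed, with a median of 0.06. The smallest adjusted p in that list belonged to B4galt3, a paralog of B4galt1, at a log2 change of 0.33 (adjusted p = 0.444). The difference between B4galt1 and its paralogs was not tested.

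Promoter sequence is shown for 3 of the genes that fell, as examples with several or 0 GC boxes, the motif bound by Sp1, itself a member that did not pass the test. The windows are the 250 bases before the transcription start in RefSeq (assembly GRCm38.p6), 5′ to 3′ on the gene's own strand, with the GC box GGGCGG, or CCGCCC on the other strand, in capitals. They are B4galt1 at chr4:40853985-40854234 (minus strand), Cd164 at chr10:41519250-41519499 (plus strand) and Serp1 at chr3:58525885-58526134 (minus strand).
B4galt1: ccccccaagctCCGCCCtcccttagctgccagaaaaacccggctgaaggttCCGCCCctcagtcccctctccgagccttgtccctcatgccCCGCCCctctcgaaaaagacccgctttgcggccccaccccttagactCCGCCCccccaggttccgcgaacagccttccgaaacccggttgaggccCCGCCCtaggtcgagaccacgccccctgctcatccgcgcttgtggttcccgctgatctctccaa
Cd164: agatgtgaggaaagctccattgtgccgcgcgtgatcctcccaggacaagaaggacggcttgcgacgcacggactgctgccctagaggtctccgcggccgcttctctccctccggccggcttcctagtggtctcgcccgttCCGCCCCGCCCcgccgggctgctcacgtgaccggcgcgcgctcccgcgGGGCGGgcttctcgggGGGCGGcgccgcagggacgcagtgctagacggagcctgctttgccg
Serp1: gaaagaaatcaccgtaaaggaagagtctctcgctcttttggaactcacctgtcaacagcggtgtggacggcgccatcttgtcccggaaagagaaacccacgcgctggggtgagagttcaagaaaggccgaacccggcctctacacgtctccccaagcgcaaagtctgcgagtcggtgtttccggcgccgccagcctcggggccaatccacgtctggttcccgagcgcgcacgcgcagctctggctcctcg

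B4galt1 held 5 matches spread over the window, Cd164 held 4, of which a pair overlaps in 1 run, and Serp1 held 0. A window was found for 26 members, and 18 of them (69.2%) held the motif, against 35.4% of 27025 genes and 32.7% of 32851 windows. It was found in 7 of the 9 that fell and in 11 of 17 that did not pass. These letters were counted without regard to base composition, and a match is not a binding site. The 27025 genes include genes not measured here, and the share among genes as bright as the members was not counted. The other 7 members were not searched.

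All 4 lipid and retinoid enzymes lay lower with the plasmid without overlap, 2 of them passed (Elovl1 and Cers2), and the median log2 change of the 4 was -0.91. Over all genes 7.76% were lower without overlap and 0.698% were called lower. Elovl1, which lengthens saturated very long fatty acids, read 8.54, 8.81 and 8.79 with the empty vector and 7.53, 7.12 and 7.89 with the plasmid. Its log2 change was -1.20 (SE 0.18, adjusted p = 0.0278). Cers2, the ceramide synthase that uses such very long acyl chains, read 9.54, 9.33 and 9.39 against 8.58, 8.19 and 8.59 and fell by 0.97 in log2 terms (SE 0.13, adjusted p = 0.0177). RNA of both genes was thus lower, and the levels of the enzymes were not measured. 2 further probe sets of Elovl1 gave -1.27 and -1.19, and the remaining, dim one (mean signal 3.61) gave -0.20.

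Elovl5, which lengthens polyunsaturated fatty acids, read 8.98, 9.74 and 9.72 against 8.26, 8.69 and 8.95. The highest plasmid array lay only just below the lowest vector array, and the log2 change was -0.85 (interval -1.38 to -0.31, adjusted p = 0.175). Rdh10, the retinol dehydrogenase that starts retinoic acid synthesis, read 6.58, 6.75 and 6.77 against 5.62, 5.72 and 6.37, a log2 change of -0.80 (interval -1.22 to -0.37, adjusted p = 0.107). Plasmid replicate 3 of Rdh10 lay close to the vector arrays. Among 18 other genes of fatty acid elongation and ceramide synthesis 0 passed, with a median of 0.00, and Sptlc1, a subunit of the first enzyme of sphingolipid synthesis, had the smallest adjusted p (-0.43, adjusted p = 0.103). The other ceramide synthases measured, Cers3, Cers4, Cers5 and Cers6, had log2 changes of -0.07, 0.12, -0.12 and 0.21. Those of Elovl2, Elovl3, Elovl4, Elovl6 and Elovl7 were 0.04, -0.03, 0.13, 0.12 and -0.27, and Elovl7 was lower without overlap. In 13 genes of retinoid metabolism 0 passed, with a median of 0.08, and the smallest adjusted p was 0.213 (Rdh14, log2 change 0.49).

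Of the 3 surface, junction and transport genes, Cd164 and Slc16a1 fell and F11r did not pass, where 0.698% of all genes were called lower. Cd164 (endolyn), a sialomucin of lysosomes and the cell surface, was the brightest of the 33. It read 10.62, 10.76 and 10.84 with the empty vector and 9.51, 9.48 and 9.96 with the plasmid, a log2 change of -1.09 (SE 0.14, adjusted p = 0.0165). Every plasmid array lay well below every vector array. Slc16a1 (MCT1), which carries lactate and other monocarboxylates across the membrane, read 10.37, 10.13 and 10.34 against 9.33, 9.21 and 9.76. Its log2 change of -0.84 (SE 0.15, adjusted p = 0.0468) had the largest adjusted p among the 9. Slc16a1 passed under 8 of 19 alternative settings, the fewest of the 9, and was lost with the poly-A split as a block (adjusted p = 0.0570; range over the alternatives 0.00559 to 0.35).

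F11r (JAM-A), an adhesion protein of tight junctions, read 6.21, 5.63 and 5.47 against 5.75, 5.60 and 5.57, with a log2 change of -0.13 (interval -0.54 to 0.28, adjusted p = 0.887). All plasmid arrays lay within the range of the vector arrays, of which replicate 1 stood highest. Of 6 other genes of monocarboxylate transport 0 passed, with a median of 0.03; Emb, a chaperone of these transporters, had the smallest adjusted p (-0.33, adjusted p = 0.285). Of 10 tight junction partners 0 passed, with a median of -0.09, and the smallest adjusted p was that of the polarity protein Pard3 (-0.55, adjusted p = 0.0992).

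**Figure D2:**
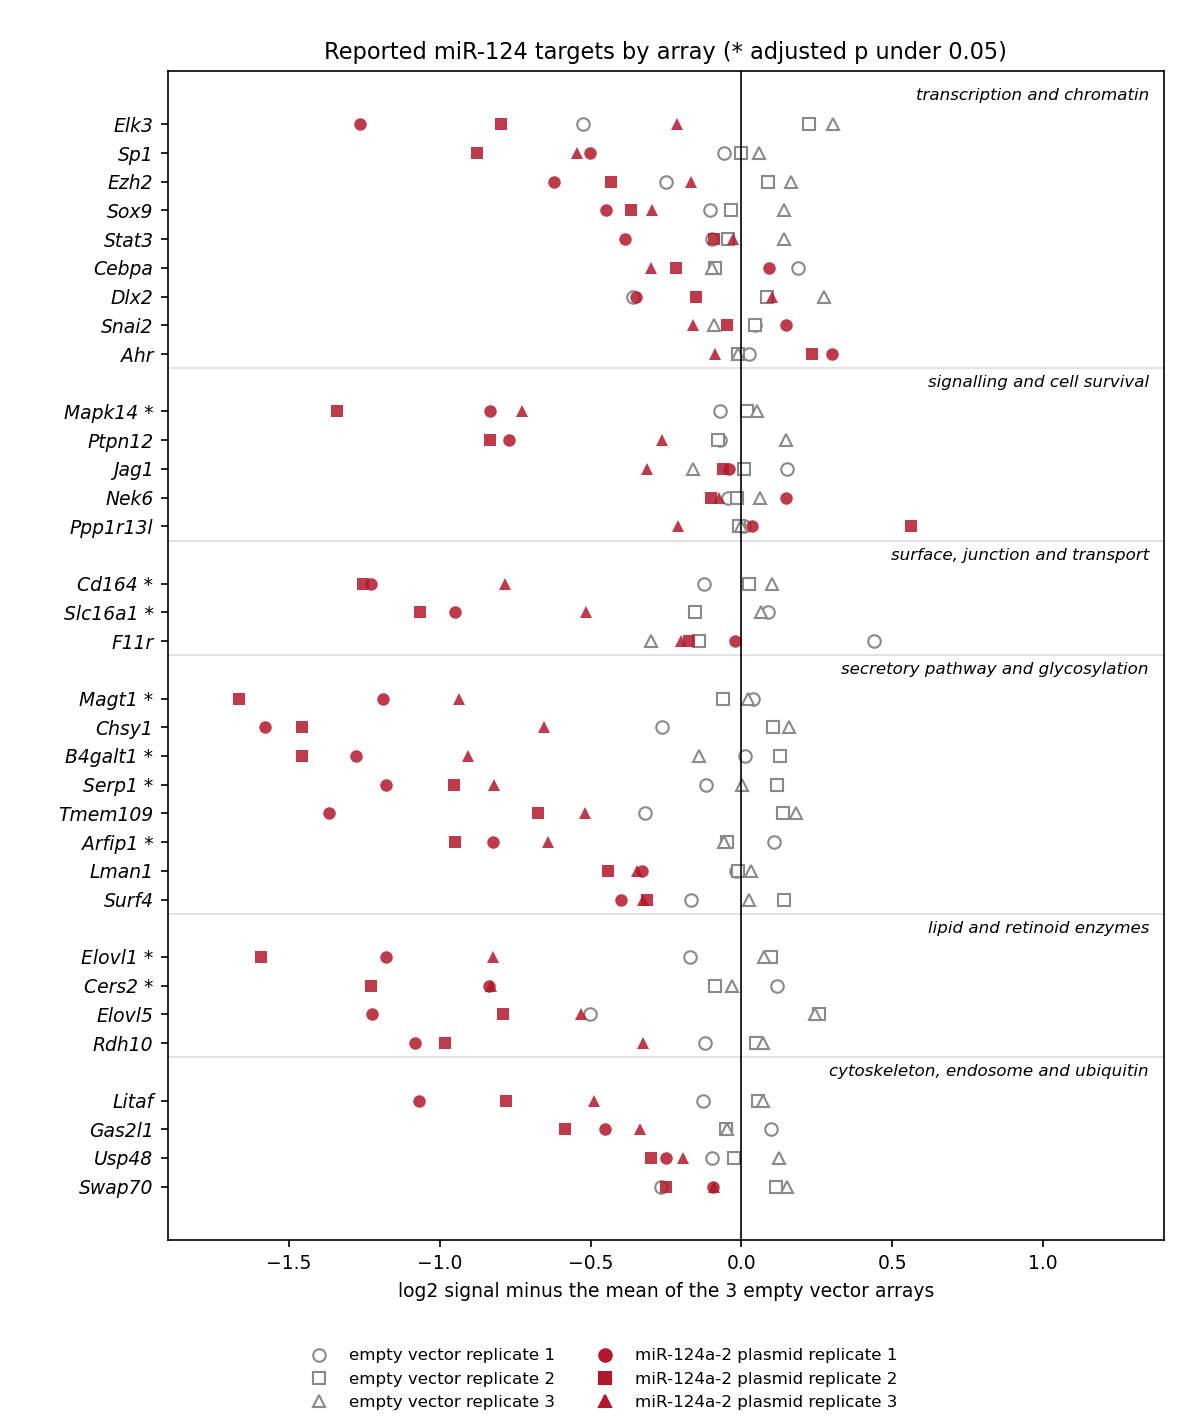
Log2 signal of each of the 33 reported targets in every array minus the mean of the 3 empty vector arrays (horizontal axis), by role; open symbols are empty vector and filled symbols miR-124a-2 plasmid arrays, 1 symbol shape per replicate number, and an asterisk marks an adjusted p under 0.05. The secretory and lipid genes have every filled symbol left of every open one, while 7 of the 9 transcription and chromatin genes overlap.

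Among the 5 signalling and cell survival genes 1 fell, Mapk14, where 0.698% of all genes were called lower, and the median log2 change was -0.14. Mapk14 (p38 alpha), a stress-activated kinase, read 8.72, 8.81 and 8.85 with the empty vector and 7.96, 7.46 and 8.07 with the plasmid, a log2 change of -0.97 (SE 0.16, adjusted p = 0.0326). The vector arrays were nearly equal and plasmid replicate 2 was the lowest. Of its 6 probe sets, the 3 with mean signals of 8.31, 7.53 and 6.20 gave -0.97, -0.92 and -1.02, and the 3 with means of 5.87 or lower gave -0.01 to 0.10. Averaged over all of them, Mapk14 had a log2 change of -0.47 and did not pass (adjusted p = 0.0568; range over the alternatives 0.0113 to 0.260).

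In the p38 pathway, 13 genes were measured besides it and 1 fell. That was Map2k3, a kinase that activates p38, which went from 8.53 ± 0.10 to 7.98 ± 0.07 (mean log2 signal ± SD, n = 3), a log2 change of -0.55 (SE 0.10, adjusted p = 0.0468). Map2k3 passed with plasmid replicate 3 left out but not with any other single array left out, and not after median centring, with the most variable probe set or with all probe sets tested. The other p38 kinases Mapk11, Mapk12 and Mapk13 had log2 changes of 0.05, 0.10 and -0.07. Ptpn12 (PTP-PEST), a tyrosine phosphatase of adhesion and motility signalling, read 8.67, 8.67 and 8.89 against 7.97, 7.91 and 8.48. It did not overlap and did not pass (-0.62, interval -0.98 to -0.26, adjusted p = 0.142).

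Jag1, a Notch ligand, was dim: 4.24, 4.09 and 3.93 against 4.04, 4.02 and 3.77, with a log2 change of -0.14 (interval -0.42 to 0.14, adjusted p = 0.792). The groups overlapped close to the level of the control transcript that is not added. Of 18 Notch pathway genes 1 fell, Adam17, the protease that cleaves Notch and many other surface proteins. Adam17 went from 7.45 ± 0.09 to 6.67 ± 0.13 (mean log2 signal ± SD, n = 3), a log2 change of -0.78 (SE 0.11, adjusted p = 0.0177). Each of its 3 probe sets was lower, but Adam17 did not pass with the mean of them or with the most variable one, nor without empty vector replicate 2, empty vector replicate 3, plasmid replicate 1 or plasmid replicate 2. Ppp1r13l (iASPP), an inhibitor of p53, read 6.72, 6.70 and 6.71 against 6.75, 7.27 and 6.50, with a log2 change of 0.13 (interval -0.27 to 0.53, adjusted p = 0.889). Its sign rests on plasmid replicate 2, without which it was -0.09. Nek6, a mitotic kinase, had a log2 change of -0.01 (interval -0.25 to 0.23) and overlapping groups.

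Of the 9 transcription and chromatin genes 0 passed, 4 had an unadjusted p under 0.05, 2 were without overlap (Sp1 and Sox9) and the median log2 change was -0.17. In the same limma fit 1988 of all 18195 genes had an unadjusted p under 0.05, and 7.76% of all genes were lower without overlap. Sp1, a widely expressed activator that binds GC boxes, read 9.37, 9.43 and 9.49 with the empty vector and 8.93, 8.56 and 8.89 with the plasmid. Its log2 change was -0.64 (interval -0.91 to -0.37, adjusted p = 0.0564). Its 3 probe sets gave -0.64, -0.54 and -0.56, and it passed under 8 of 19 alternative settings. Sox9, a factor of glial and neural stem cells that is known to be repressed in neurogenesis, read 6.39, 6.46 and 6.63 against 6.04, 6.13 and 6.20, a log2 change of -0.37 (interval -0.61 to -0.13, adjusted p = 0.184). All plasmid arrays lay below, by a small margin.

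Elk3 (Net), an Ets family factor that responds to Ras signalling, read 8.38, 9.13 and 9.21 against 7.64, 8.11 and 8.70. The 2 groups spread widely, replicate 1 was the lowest array in both, and the log2 change of -0.76 (interval -1.41 to -0.10) had an adjusted p of 0.353. Ezh2, the methyltransferase of Polycomb repressive complex 2, read 9.03, 9.37 and 9.44 against 8.66, 8.85 and 9.12, a log2 change of -0.41 (interval -0.75 to -0.06, adjusted p = 0.340). Plasmid replicate 3 of Ezh2 overlapped vector replicate 1. Of 10 other genes of that complex 0 passed, with a median of -0.05, and the subunit Suz12 had the smallest adjusted p (-0.33, adjusted p = 0.577).

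The remaining 5 of these regulators lay between -0.17 and 0.15. Stat3, which carries cytokine signals to the nucleus, had a log2 change of -0.17 (interval -0.45 to 0.12), and of 13 genes of its signalling route 0 passed (median 0.07; smallest adjusted p 0.142, Ptpn11, -0.42). Dlx2, a homeobox factor of interneuron development, had one of -0.13 (interval -0.54 to 0.27). Cebpa, a factor of myeloid and fat cells, Snai2 (Slug), a factor of epithelial-mesenchymal transition, and Ahr, the aryl hydrocarbon receptor, were dim, with mean signals with the empty vector of 4.12, 3.84 and 4.69. Their log2 changes were -0.14, -0.02 and 0.15. Of 7 genes of the aryl hydrocarbon receptor pathway 0 passed (median -0.10; smallest adjusted p 0.533, Tiparp, 0.20).

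Of the 4 cytoskeleton, endosome and ubiquitin genes 0 passed, 3 were without overlap and the median log2 change was -0.35. By limma 3 of the 4 had an unadjusted p under 0.05, against 1988 of all 18195 genes, and 7.76% of all genes were lower without overlap. Litaf, a membrane protein of late endosomes, read 7.50, 7.69 and 7.70 against 6.56, 6.85 and 7.14, a log2 change of -0.78 (interval -1.12 to -0.44, adjusted p = 0.0601), and passed under 9 of 19 alternative settings. Gas2l1, which links actin filaments to microtubules, read 7.69, 7.54 and 7.55 against 7.14, 7.01 and 7.26, a log2 change of -0.46 (interval -0.70 to -0.22, adjusted p = 0.0988). Its other 2 probe sets were dim (means 5.22 and 4.32) and gave 0.05 and 0.26. Usp48, a deubiquitinating enzyme, read 8.70, 8.78 and 8.93 against 8.55, 8.50 and 8.61, with a log2 change of -0.25 (interval -0.47 to -0.02, adjusted p = 0.394). Swap70, a protein of actin rearrangement, read 6.39, 6.77 and 6.81 against 6.56, 6.40 and 6.57, with a log2 change of -0.15 (interval -0.44 to 0.15), and its groups overlapped.

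**Figure D3:**
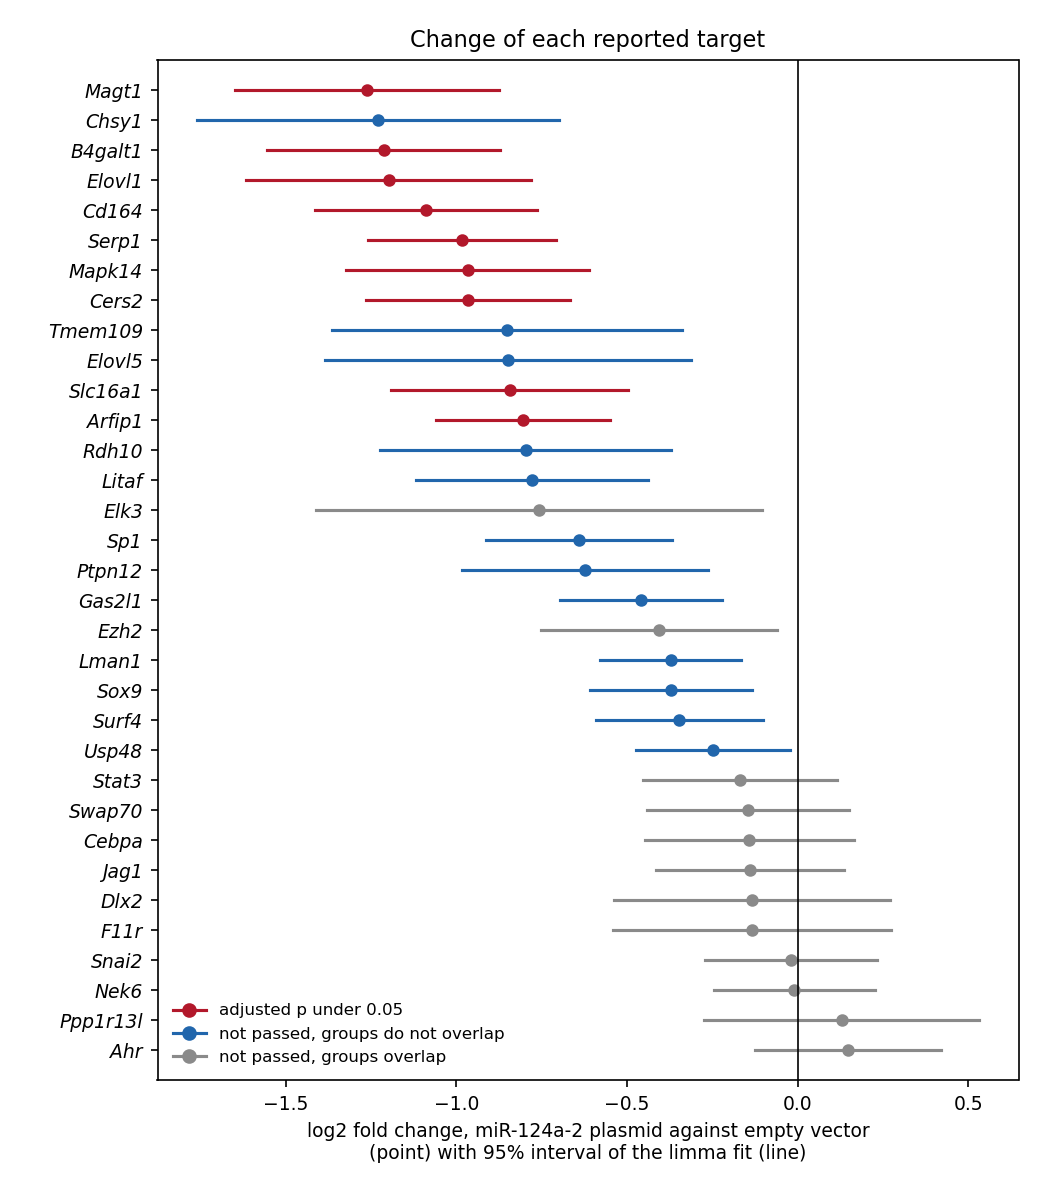
Log2 change of miR-124a-2 plasmid against empty vector for each of the 33 reported targets (points), with the 95% interval from limma (lines), ordered by size; colour separates the 9 that passed, the 12 that did not pass but whose groups did not overlap, and the 12 whose groups overlapped. Magt1 has the largest change (-1.26), and the intervals of 10 genes cross 0.

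The intervals show how far the arrays bear on the genes that did not pass. Chsy1, Tmem109 and Elovl5 had point values within the range of the genes that passed and standard errors of 0.23, 0.23 and 0.24, against 0.11 to 0.18 among the 9. Of the 24 that did not pass, 6 had an interval that reached a log2 change of -1, a 2-fold lower level: Chsy1, Tmem109, Elovl5, Rdh10, Litaf and Elk3. The intervals of the other 18 stayed above it. Among those, Jag1, Cebpa, Snai2 and Ahr were dim, with mean signals with the empty vector of 4.09, 4.12, 3.84 and 4.69. For probe sets that dim, a narrow interval does not show that the transcript changed by less than 2-fold. In data simulated with the spread of these arrays, 25.8% of changes of 0.5 on the log2 scale and 80.3% of changes of 1 were found. These rates are from the table of 18195 genes and not from the members, so they do not give the rate for any single member.

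The 33 members had 88 probe sets, of which 71 were lower with the plasmid. Tested together with all 34958 probe sets of 1 gene, 9 were called lower, against a background of 0.252%, and 0 higher. Of the 61 member probe sets with a mean signal above 6 (a level chosen after the values were seen) 56 were lower, with a median log2 change of -0.60, where 50.0% of all such probe sets were lower. Of the 27 at or below 6, 15 were lower, with a median of 0.00, against 48.2% of all such probe sets. Dim probe sets of Cd164, Slc16a1 and Elovl1 thus gave 0.01, -0.20 and -0.20, while the brightest of the same genes gave -1.09, -0.84 and -1.20. The lowest value among the 27 was -0.49, from a probe set of Rdh10 (mean signal 5.13), whose brightest gave -0.80.

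**Figure D4:**
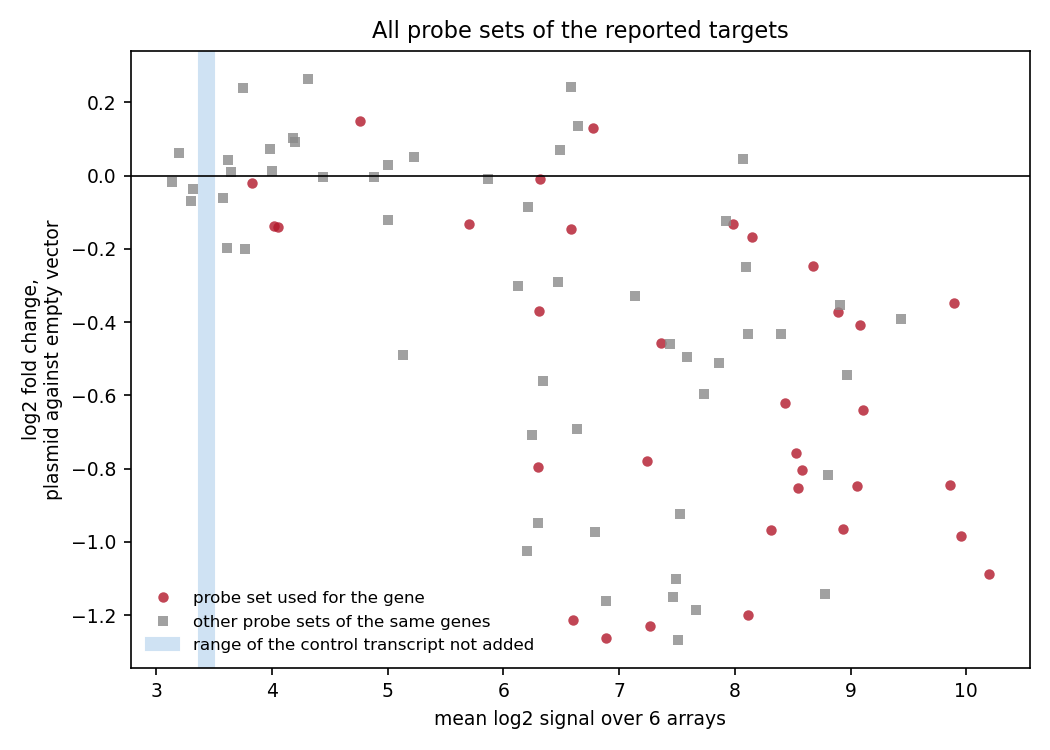
Log2 change of miR-124a-2 plasmid against empty vector (vertical axis) against the mean log2 signal over 6 arrays (horizontal axis) for all 88 probe sets of the 33 genes; circles are the probe sets used, squares the others, and the band is the range of a control transcript that was not added. Values well below 0 appear mostly among brighter probe sets, and the 27 with a mean of 6 or less have a median of 0.00 and a lowest value of -0.49.

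The size of the changes differed between the arrays. Relative to the mean of the empty vector arrays, the median of the 9 genes that fell was -1.18, -1.26 and -0.82 in plasmid replicates 1, 2 and 3, and that of all 33 was -0.62, -0.67 and -0.33. Replicate 3, the wide plasmid array, was the highest plasmid array in 23 of the 33 members and in 33.6% of all genes. Within the narrow arrays, which hold 1 empty vector array, the median log2 change of the 33 was -0.54, and within the wide arrays, which hold 1 plasmid array, it was -0.39; all genes had medians of -0.01 and 0.00. For 4 of the 9 the values within the sets differed by over 1.5 times: Magt1 had -1.46 (narrow) and -0.92 (wide), B4galt1 -1.38 and -0.90, Slc16a1 -1.10 and -0.47, and Arfip1 -0.99 and -0.59. All 9 kept their direction in both sets. With the array set as a block 14 of the 33 fell (background 1.58%), the 9 and Chsy1, Litaf, Sp1, Rdh10 and Elovl5.

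Calls were lost when single arrays were left out, for the members as for the whole table, while the changes kept much of their size. With 1 array left out, the median log2 fold change of the members ran from -0.69 to -0.50, and Magt1 from -1.43 to -1.06. Without empty vector replicate 2, without empty vector replicate 3 or without plasmid replicate 1, 0 of the 33 passed by limma, while 0, 0 and 13 of all genes did; 19, 20 and 20 members and 1285, 1313 and 1768 of all genes then had an unadjusted p under 0.05. Without empty vector replicate 1 and without plasmid replicate 2 it was 3 members (B4galt1, Cd164 and Serp1) and 4 (B4galt1, Cers2, Magt1 and Mapk14), and without plasmid replicate 3 it was 14. Fits with the poly-A split as a block gave 12 members (background 1.04%). Replicates 2 and 3 alone, which share 1 poly-A level, gave 0 by limma, with 24 members and 1825 of all genes at an unadjusted p under 0.05. Slc16a1 and Mapk14 were also lost after median centring, and with the mean or the most variable of the probe sets of a gene, or with all probe sets tested. The mean of the probe sets further lost Cd164 (-0.54, adjusted p = 0.0568) and gained Tmem109. The most variable probe set lost Arfip1, and the test of all probe sets lost Elovl1. No member was called higher in any of these fits.

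**Figure D5:**
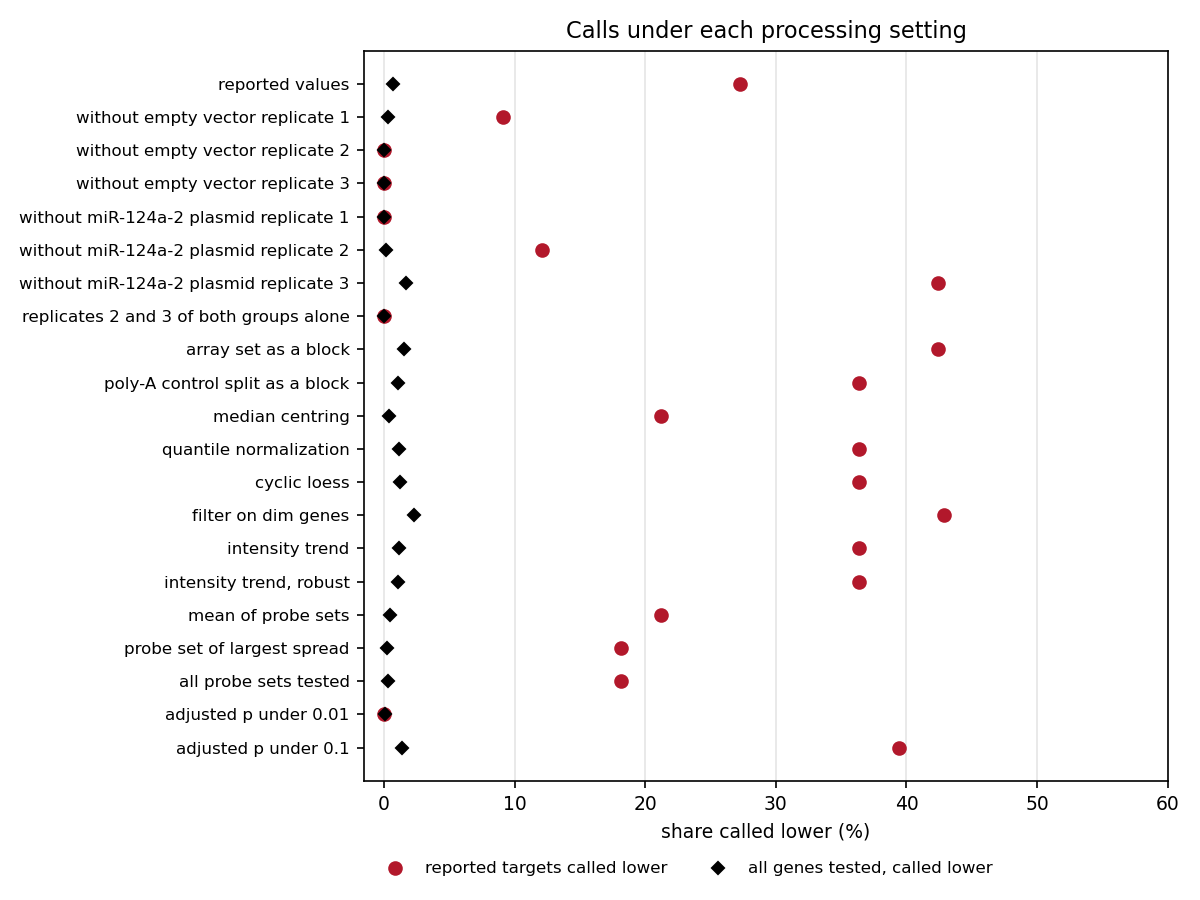
Share called lower with the miR-124a-2 plasmid (horizontal axis, percent) among the 33 reported targets (circles) and among all genes tested (diamonds) under the reported setting and each alternative other than the replicate number as a block (vertical axis); the filter on dim genes tested 28 of the 33. In the settings drawn, members called range from 0 to 14, and in each setting with 0 at adjusted p under 0.05 at most 7 of all genes were called lower.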

How the data were processed

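RNA of CAD cells was measured in 3 empty vector and 3 miR-124a-2 plasmid cultures, named biological replicates in the labels. Per the labels' protocols, biotinylated cRNA was made from total RNA. The authors deposited log2 signals, 1 per probe set and array. The submitters' processing notes name RMA, with a version not given in the sources used here. The 6 columns differed by at most 0.19 at any rank and were used as given. Arrays have no read depth, and their number limits the precision.

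Gene names came from the 2016 platform annotation. Of 45101 probe sets, 34958 had 1 gene, 932 several and 9211 were not listed. RefSeq held 18033 of the 18195 genes, and 0 symbols changed. Groups were compared with limma 3.58.1 in R 4.3.3 (lmFit and eBayes without a block, two-sided). Benjamini-Hochberg adjustment ran over the 18195 genes, and 0.05 was the threshold. Errors and 95% intervals are from that fit. Each p-value sets a group difference against the spread between arrays of the same group, moderated by eBayes over all genes. That spread also holds any difference between the narrow and wide arrays. On simulated data (20 draws), a mean of 3.89% of calls fell on unchanged genes.

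The members and all lists were chosen with earlier results of these data known. Values per array are given for members that passed, that did not overlap, or that had the 1 or 2 largest changes among the rest of each role; from each partner list, those that passed or the smallest adjusted p, and paralogs of members. Alternatives were block fits, arrays left out, other normalizations, filters, variance models, probe set rules and thresholds. Mature miR-124 and 3′ untranslated sequence were not analysed here. Promoters are RefSeq's.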

Additional observations from a re-analysis of the deposited data

How the results depend on the processing

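All 165 genes and 9 members called refer to limma at an adjusted p under 0.05. Leaving out 1 array gave 0 to 343 of all genes and 0 to 14 members, and replicates 2 and 3 alone gave 0 and 0. Counts of all genes were 546 with the array set as a block, 290 with the poly-A split as a block, 99 after median centring, 311 after quantile normalization, 312 after cyclic loess, 308 with the filter on dim genes, 270 with an intensity trend, 266 with a robust one, 51 with the most variable probe set, 80 with all probe sets tested, 17 at an adjusted p under 0.01 and 366 under 0.1. Members called were 14 with the array set as a block and 0 at an adjusted p under 0.01, and within 1.5 times of 9 (6 to 13) in the others.

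With the replicate number as a block, 17 members (background 1.68%) and 457 of all genes were called; all 9 were kept. Deviations of same-numbered arrays correlated at 0.54, 0.00 and 0.55 over genes, and not every array correlated best with its own number, so the numbers do not show a pairing.

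Of 622 member values under alternatives, 509 kept direction and side of the threshold, 59 no longer passed (47 of them with arrays left out), 38 passed newly and 16, in 6 members that never passed there, changed sign. With 1 array left out, the Snai2 log2 fold change ran from -0.105 to 0.04997, the Nek6 log2 fold change from -0.0876 to 0.0368, the F11r log2 fold change from -0.282 to 0.0866, the Dlx2 log2 fold change from -0.313 to 0.00322 and the Ppp1r13l log2 fold change from -0.0867 to 0.299. Snai2 was 0.109 with the mean of probe sets and 0.238 with the most variable one. Nek6 was 0.0171 after quantile normalization and 0.0114 with the most variable probe set. F11r was 0.0316 in replicates 2 and 3 alone, Dlx2 0.0146 with the array set as a block and the Stat3 log2 fold change 0.0715 with the most variable probe set. The cause was not tested.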

Other observations

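A probe set of the miR-124-2 host transcript read 3.79, 3.73 and 3.68 with the empty vector and 3.85, 3.66 and 3.90 with the plasmid, and one of the miR-124a-1 host transcript read 4.54, 4.44 and 4.54 against 4.63, 4.63 and 4.50. The groups overlapped in both. Neither reads the mature microRNA, and where the probes lie relative to the plasmid's insert was not analysed here, so these values do not check the labels.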
